A study of Mus musculus with 10 samples.

Results

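Apoe and 8 further genes of cholesterol handling (Abca1, Abcg1, Lpl, Fabp5, Nr1h3, Nr1h2, Lrp1 and Soat1) were followed in microglia of the mouse midbrain (Mdb) and striatum (Str). They are 9 of the 53715 genes counted, and were listed by symbol. Apoe was selected on its difference between Mdb and Str in these libraries, and the others were listed with it to ask whether that difference comes with other lipid genes. The regional values of the 9 genes are therefore a description, and where their calls on this contrast are counted, the counts support nothing. The microglia came from untreated C57BL/6 mice aged 3 months, and were purified with magnetic beads against CD11b, a surface protein that macrophages, monocytes and neutrophils carry too. Exp 1, titled pilot, comprised 2 Mdb and 2 Str libraries. From Exp 2, 2 Mdb and 2 Str libraries were used, numbered 1 and 3 in their titles, while 2 further libraries carry labels that disagree on the region and entered no comparison. The poly-A RNA was read with MARS-seq, which counts the 3′ ends of transcripts in bulk.

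Apolipoprotein E, the product of Apoe, carries cholesterol and phospholipids out of cells in lipoprotein particles. In the brain it is made mainly by astrocytes and also by microglia, and brain macrophages raise it when they take up lipid-rich debris. ABCA1 and ABCG1 are the membrane transporters that load cholesterol onto such particles, LRP1 is a receptor that takes the particles up, and lipoprotein lipase (Lpl) releases fatty acids from their triglycerides. FABP5 carries fatty acids inside the cell, and SOAT1 esterifies cholesterol for storage in lipid droplets. LXRα (Nr1h3) and LXRβ (Nr1h2) are nuclear receptors that sense oxidised cholesterol and switch on Apoe, Abca1, Abcg1 and Lpl.

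LXR binds, with RXR, a DR4 element, a direct repeat of the nuclear receptor half-site with a spacer of 4 bases. The promoters of Abca1 and Apoe are shown because both are LXR targets and their regional values went in opposite directions. A link between the promoter windows and those directions was not tested. RefSeq windows of 250 bases before to 50 bases after the start on GRCm38.p6 were at hand for 6 of the 9 genes. Abcg1, Lpl and Fabp5 had no entry. Below are the bases before the start on the minus strand, at chr4:53159896-53160145 for Abca1 and chr7:19699189-19699438 for Apoe, 5′ to 3′. The match to the DR4 pattern is in capitals.
Abca1: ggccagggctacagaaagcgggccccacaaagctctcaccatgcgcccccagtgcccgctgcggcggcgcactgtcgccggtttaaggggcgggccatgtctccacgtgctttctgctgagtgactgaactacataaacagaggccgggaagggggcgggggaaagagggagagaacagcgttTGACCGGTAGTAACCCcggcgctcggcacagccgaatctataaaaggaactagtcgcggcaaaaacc
Apoe: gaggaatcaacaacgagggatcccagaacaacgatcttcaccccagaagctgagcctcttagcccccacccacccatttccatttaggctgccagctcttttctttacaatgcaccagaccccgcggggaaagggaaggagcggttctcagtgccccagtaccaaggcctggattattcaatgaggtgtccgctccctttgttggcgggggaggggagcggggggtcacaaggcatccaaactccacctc

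The Abca1 window held the DR4 pattern at -67 to -52 from the start, where it reads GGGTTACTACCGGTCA on the opposite strand. The pattern, searched on both strands, was not found in the 3 Apoe windows, nor in those of Soat1, Nr1h3, Nr1h2 and Lrp1, and was present in 0.253% of all 32851 windows. The pattern allowed variants of the half-site, and the half-sites of the Abca1 match are not identical. Elements outside the windows were not searched, so a window without a match does not show that a gene lacks a DR4 element. These letters describe the windows only, and binding was not measured.

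Between 575709 and 8463782 reads were counted per assigned library, a 14.7-fold range, and 3 counts correspond to 0.351 to 5.15 CPM (reads scaled to a common library size). Str 3 of Exp 2 was the shallowest and stood apart, so medians and fold changes that moved by over 1.5 times without it are given without it as well. Levels are CPM scaled with the TMM factors of edgeR. The 11 homeostatic microglia markers summed to 12145 to 24025 CPM per library, so the genes that define the labelled cell type were well expressed. Among the neuron markers, Drd1, Th and Slc6a3 had at most 3 counts in every library.

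Apoe ranked second of the genes tested by its mean level and took between 0.411% and 1.82% of the counts of a library. In Exp 1, it stood at 16717 and 16202 CPM in Mdb and at 7120 and 6914 CPM in Str. In Exp 2, it stood at 16252 and 18912 CPM in Mdb and at 8547 and 4067 CPM in Str. All 4 Mdb libraries lay above all 4 Str libraries, and the Str value at 4067 CPM belongs to the shallowest library. The mean level was 16459 ± 364 (SD, n = 2) against 7017 ± 146 CPM in Exp 1, a ratio of 2.35, and 17582 ± 1880 against 6307 ± 3167 CPM in Exp 2, a ratio of 2.79. The log2 fold change of Mdb over Str was 1.19 (SE 0.19) in Exp 1, 1.51 (SE 0.29) in Exp 2 and 1.39 (SE 0.19) in the joint fit of both experiments. Without Str 3 of Exp 2 it was 1.13 (SE 0.14).

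**Figure D1:**
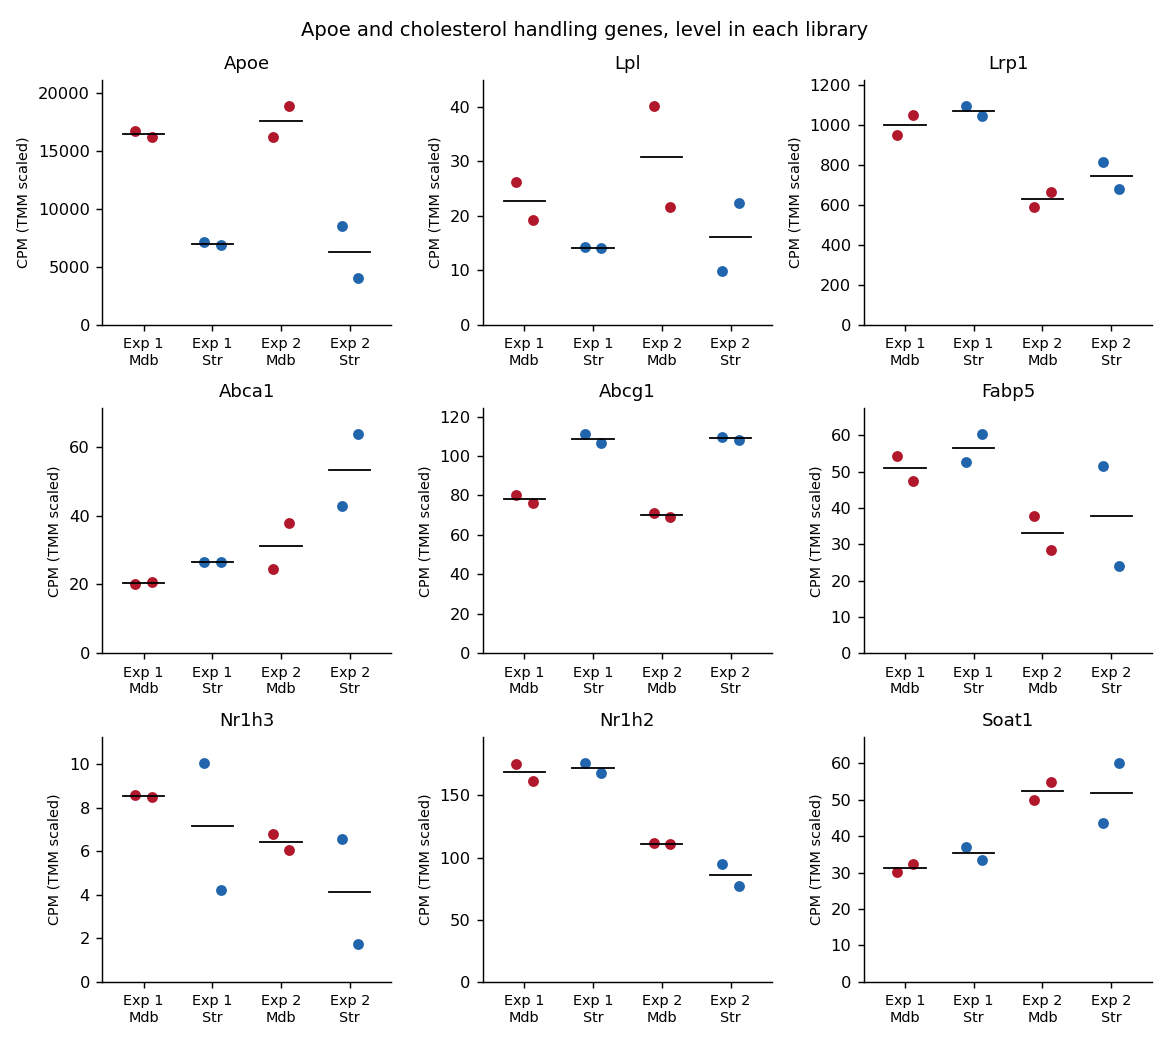
Level of each of the 9 genes in the 8 assigned libraries (y axis, CPM scaled by TMM, from 0) by experiment and region (x axis). Points are libraries, red for Mdb and blue for Str, and the black line is the mean of 2 libraries. Apoe lies higher and Abca1 and Abcg1 lower in Mdb than in Str in each experiment, without overlap.

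The transporters of cholesterol efflux had the opposite order. Abcg1 stood at 80.3 and 76.2 CPM in Mdb and at 110.9 and 106.8 CPM in Str in Exp 1. In Exp 2, it stood at 71.3 and 68.9 CPM in Mdb and at 109.8 and 108.3 CPM in Str. The 4 Mdb libraries were all below the 4 Str libraries. The ratio of the means was 0.719 in Exp 1 and 0.643 in Exp 2, and the joint log2 fold change was -0.54 (SE 0.13), or -0.57 (SE 0.14) without Str 3 of Exp 2.

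Abca1 stood at 20.2 and 20.8 CPM in Mdb and at 26.5 and 26.4 CPM in Str in Exp 1. In Exp 2, its levels were 24.4 and 37.8 CPM in Mdb and 42.9 and 63.6 CPM in Str. The regions were apart within each experiment but overlapped across experiments, since the Mdb 3 library of Exp 2 exceeded both Str libraries of Exp 1. Its joint log2 fold change was -0.49 (SE 0.20), and -0.45 (SE 0.21) without Str 3 of Exp 2.

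Lpl followed the order of Apoe in the means but not in every library. It stood at 26.2 and 19.1 CPM in Mdb and at 14.2 and 14.0 CPM in Str in Exp 1, and the regions did not overlap. In Exp 2, the levels were 40.1 and 21.6 CPM in Mdb and 9.82 and 22.3 CPM in Str, where Str 3 slightly exceeded Mdb 3. Its joint log2 fold change was 0.88 (SE 0.29).

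The regions overlapped in at least 1 experiment for both receptors that switch these genes on. Nr1h3 stood at 8.56 and 8.49 CPM in Mdb and 10.1 and 4.21 CPM in Str in Exp 1, and at 6.79 and 6.03 CPM in Mdb and 6.55 and 1.72 CPM in Str in Exp 2. Its lowest value rests on 1 count, and its joint log2 fold change of 0.47 (SE 0.36) has an error nearly as large (0.32, SE 0.37, without Str 3 of Exp 2). Nr1h2 stood at 175.7 and 161.3 CPM in Mdb and 176.2 and 168.2 CPM in Str in Exp 1. In Exp 2, it stood at 111.4 and 110.7 CPM in Mdb and 94.9 and 77.3 CPM in Str. The regions overlapped in Exp 1 and were apart in Exp 2, and the joint log2 fold change was 0.10 (SE 0.14), or 0.03 (SE 0.14) without Str 3 of Exp 2.

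Uptake, transport and storage genes also overlapped in at least 1 experiment. Lrp1 stood at 948 and 1050 CPM in Mdb and 1095 and 1045 CPM in Str in Exp 1, and at 592 and 665 CPM in Mdb and 815 and 679 CPM in Str in Exp 2. Fabp5 stood at 54.3 and 47.5 CPM in Mdb and 52.5 and 60.2 CPM in Str in Exp 1, and at 37.8 and 28.5 CPM in Mdb and 51.7 and 24.1 CPM in Str in Exp 2. Soat1 stood at 30.1 and 32.3 CPM in Mdb and 37.2 and 33.4 CPM in Str in Exp 1, and at 50.1 and 55.0 CPM in Mdb and 43.6 and 60.1 CPM in Str in Exp 2. The joint log2 fold changes were -0.18 (SE 0.12) for Lrp1, -0.23 (SE 0.19) for Fabp5 and -0.04 (SE 0.17) for Soat1, and Soat1 changed sign in 4 of 18 alternative fits.

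Of the 9 genes, Apoe alone had both Mdb libraries above both Str libraries in each experiment, an order found in 9.06% of the 14053 genes tested. Abca1 and Abcg1 had the reverse order in each experiment, which 6.04% of the genes showed. Within each experiment, where the study called genes by an unadjusted p under 0.01 from voom and limma, 1 of the 9 genes (Apoe) was called in Exp 1, against 2.64% of all genes, and 1 (Apoe) in Exp 2, against 3.47%. None of the 9 was called in Exp 1 without Mdb 1 or without Mdb 2, nor in Exp 2 without Str 3. In the joint fit it was again 1 (Apoe) at an adjusted p under 0.05, against 1.06% of all genes, and 0 without Mdb 1 or Str 1 of Exp 1 or Str 1 of Exp 2. Since Apoe was selected on this contrast, these counts are descriptive. The median log2 fold change of the 9 genes was -0.04, beside 0.04 over all genes tested. A change of the regional difference between the experiments was called for none of the 9 genes, nor for any gene (0 of 14053, 0%, limma's interaction term). In the same test 771 of the 14053 had an unadjusted p under 0.05, close to the share that this cutoff passes where no gene differs.

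**Figure D2:**
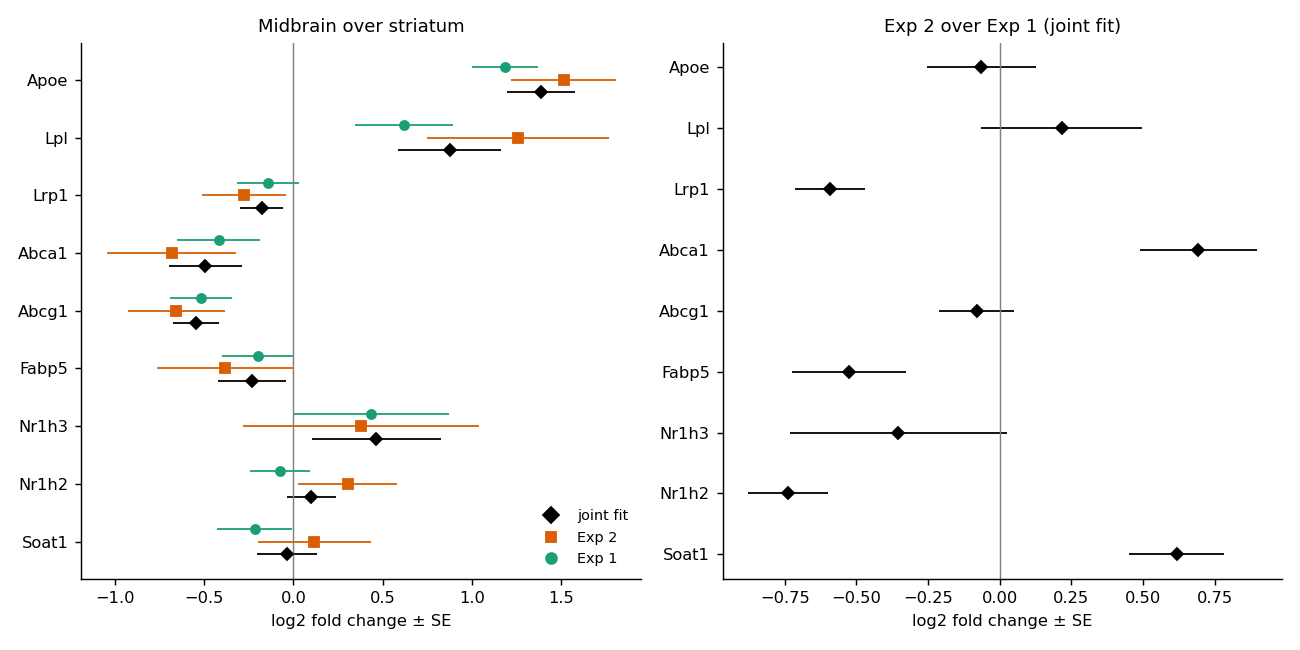
Log2 fold change (x axis) of each of the 9 genes (y axis), with bars of 1 SE. On the left, Mdb over Str in Exp 1 (circles), Exp 2 (squares) and the joint fit (diamonds), where Apoe lies near 1.39 and Abcg1 and Abca1 near -0.5. On the right, Exp 2 over Exp 1 in the joint fit, where Nr1h2 and Lrp1 lie below 0 and Soat1 and Abca1 above it.

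Differences between the experiments were not used in the choice of the genes and were tested. Nr1h2 was lower in Exp 2 by a log2 fold change of -0.74 (SE 0.14, adjusted p = 0.012, voom and limma) and Lrp1 by -0.59 (SE 0.12, adjusted p = 0.0156), with all 4 libraries of Exp 2 below all 4 of Exp 1 for both genes. Soat1 was higher in Exp 2 (log2 fold change 0.62, SE 0.17, adjusted p = 0.0386 by limma), also without overlap. These are 3 of the 9 genes, where 10.5% of all genes were called. Apoe did not pass the test (log2 fold change -0.06, SE 0.19, adjusted p = 0.853 by limma), nor did Abcg1 (-0.08, SE 0.13, adjusted p = 0.722), Lpl (0.22, SE 0.28, adjusted p = 0.646) or Nr1h3 (-0.35, SE 0.38, adjusted p = 0.569). Abca1 (0.69, SE 0.20, adjusted p = 0.0512) and Fabp5 (-0.53, SE 0.20, adjusted p = 0.108) lay nearer the threshold in the same limma fit. Over 17 alternatives the adjusted p of Abca1 ranged from 0.00789 (DESeq2) to 0.147, and it was under 0.05 in 6. The calls of Soat1, Lrp1 and Nr1h2 depended on single libraries. Lrp1 lost its call without Mdb 1 or Mdb 2 of Exp 1 or Str 3 of Exp 2, and Nr1h2 without Mdb 1 of Exp 1 (adjusted p = 0.0632 by limma). Among the fits that left out 1 library, Soat1 kept its call only without Str 2 of Exp 1 or without Str 1 of Exp 2. Over all 17 alternatives it was called in 9. Markers of other cells also differed between the experiments. Of the 10 brain endothelial markers, 8 were called lower in Exp 2, with sums of 345 to 443 CPM in Exp 1 and 65.8 to 165 CPM in Exp 2, while 5 of 8 monocyte and 5 of 10 neutrophil markers were called higher. Their part in the values of Nr1h2, Lrp1 and Soat1 was not tested, and experiment and any batch of preparation or sequencing cannot be told apart. Libraries of both regions came from the same few mice, so the libraries of an experiment are not all independent and these p-values may be too small.

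To ask whether other lipid genes differed with Apoe, 7 lists of 99 genes were examined, of which 84 had enough counts to be tested. None was called in the joint fit by limma (0 of 84, adjusted p under 0.05), beside 1.06% of all genes. At limma's unadjusted p under 0.05 there were 18, 14 higher and 4 lower in Mdb. The share of all genes was not counted, so whether these are many or few cannot be said. By edgeR's quasi-likelihood test 2 of the 84 were called (Msr1 and Mylip), and by DESeq2 6 (among them these and Ch25h, Srebf2 and Stard4). Both methods also called more of all genes than limma did, so these counts do not set the lipid genes apart. The log2 fold change was above 0 for 62 genes (73.8%, beside 54.4% of all genes tested) and below 0 for 22. The median was 0.22, and 0.13 without Str 3 of Exp 2, beside 0.04 over all genes tested. In each experiment, 17 of the 84 genes (20.2%) had both Mdb libraries above both Str libraries, beside 9.06% of all genes, and 3 (3.57%) had the reverse, beside 6.04%.

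Lipoprotein and scavenger receptors had the highest median of the 7 lists, 0.65, with 10 of 11 tested genes above 0. The median was 0.42 for apolipoproteins and lipoprotein enzymes (5 of 6 above 0) and 0.36 for esterification and lipid droplet genes (9 of 10). It was 0.23 for cholesterol synthesis and its control (17 of 23), 0.17 for fatty acid binding, uptake and activation (7 of 10), 0.12 for LXR partners and other LXR targets (9 of 15) and 0.07 for lysosomal sterol export and oxysterol enzymes (5 of 9). In the fits of single experiments, most of the 23 synthesis genes were above 0 in Exp 1 and most were below 0 in Exp 2. Mvk (0.57 and -0.61), Pmvk (0.88 and -0.22) and Mvd (0.63 and -0.58) changed sign, while Srebf2 (0.50 and 0.74) and Stard4 (1.08 and 1.26) did not. Without Str 3 of Exp 2 every one of the 7 medians was lower, at 0.47 for the receptors, 0.14 for the apolipoproteins, 0.27 for esterification, 0.15 for synthesis (14 of 23 above 0), 0.05 for fatty acid genes, 0.05 for LXR partners and targets and 0.02 for lysosomal and oxysterol genes.

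**Figure D3:**
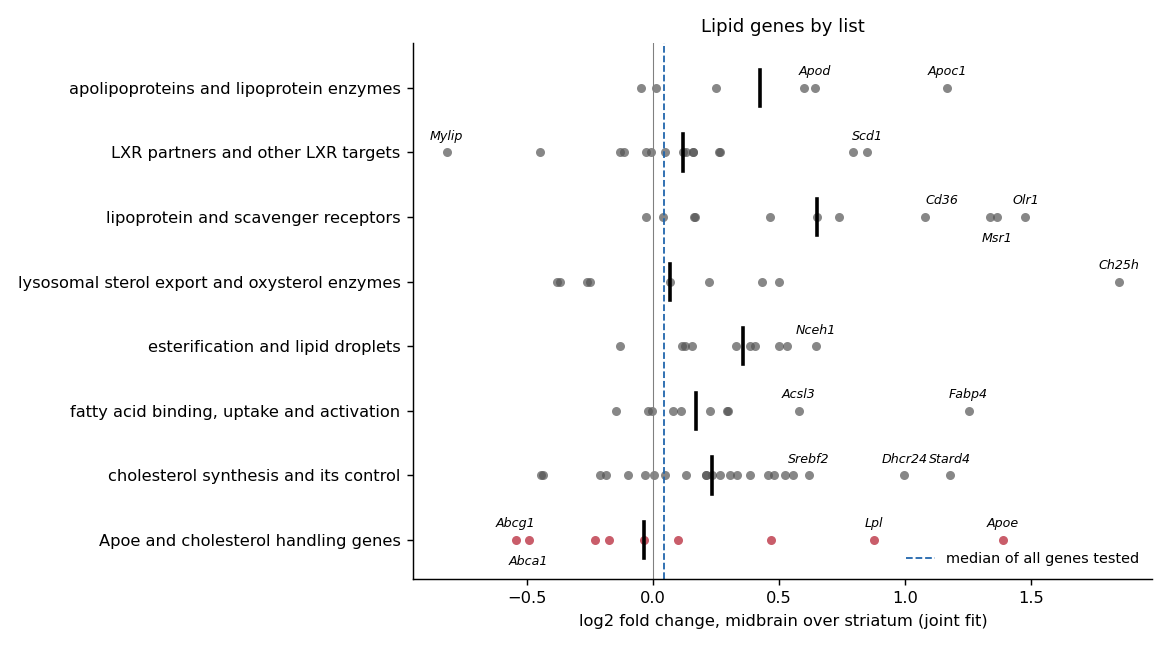
Log2 fold change of Mdb over Str in the joint fit (x axis) for each tested gene (points) of 7 lipid lists and of the 9 genes (bottom row, red). Thick bars are list medians, and the dashed line is the median of all genes tested, 0.04. Abca1 and Abcg1 lie left of 0 and Apoe right of it, and receptor genes lie mostly right of 0.

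The gene furthest in the direction of Abca1 and Abcg1 among those lists was Mylip, an LXR target whose product marks lipoprotein receptors for degradation. It was singled out after its values were seen. Mylip stood at 213 and 263 CPM in Mdb and 361 and 497 CPM in Str in Exp 1, and at 182 and 267 CPM in Mdb and 326 and 474 CPM in Str in Exp 2. All 4 Mdb libraries lay below all 4 Str libraries, as for Abcg1. Its log2 fold change was -0.82 (SE 0.18, adjusted p = 0.054 by limma). Of the 99 lipid genes, it was the only 1 called in Exp 1, beside 2.64% of all genes. Scd1, an LXR target that desaturates fatty acids, had the largest change in size among genes of that list with at least 10 CPM. Its log2 fold change of 0.85 (SE 0.38, adjusted p = 0.325 by limma) came from Exp 1 (1.21), whereas that in Exp 2 was -0.05.

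Among receptors, Msr1, a scavenger receptor for modified lipoproteins, stood at 18.8 and 16.1 CPM in Mdb and 7.96 and 11.2 CPM in Str in Exp 1. In Exp 2, the levels were 37.3 and 42.0 CPM in Mdb and 7.27 and 8.59 CPM in Str. All Mdb libraries exceeded all Str libraries, with a log2 fold change of 1.36 (SE 0.31, adjusted p = 0.0663 by limma). Msr1 and Ch25h were among the 3 of 99 lipid genes called higher within Exp 2 by the cutoff of the study, beside 2.88% of all genes. Fabp7 was the 1 called lower, beside 0.593% of all genes. Its log2 fold change was -1.69 in Exp 2 but 2.03 in Exp 1, where the regions overlapped and Str ranged from 0.585 to 14.8 CPM. In the joint fit it was 0.30 (SE 0.94).

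Ch25h, the enzyme that makes 25-hydroxycholesterol, had the largest log2 fold change of its list, 1.85 (SE 0.49, adjusted p = 0.102 by limma). It stood at 31.3 and 27.8 CPM in Mdb and 3.98 and 21.6 CPM in Str in Exp 1. In Exp 2, it stood at 23.6 and 30.4 CPM in Mdb and 2.18 and 3.44 CPM in Str, the last on fewer than 3 counts. The regions did not overlap in either experiment. Srebf2, the transcription factor that drives cholesterol synthesis, stood at 136 and 123 CPM in Mdb and 99.9 and 78.6 CPM in Str in Exp 1, and at 105 and 96.3 CPM in Mdb and 65.5 and 46.4 CPM in Str in Exp 2. Its log2 fold change was 0.62 (SE 0.15, adjusted p = 0.084 by limma). In the remaining lists, the largest log2 fold changes among genes with at least 10 CPM were 0.64 for Apod (SE 0.25), a lipocalin that binds small lipids, 0.65 for Nceh1 (SE 0.26), a cholesteryl ester hydrolase, and 0.58 for Acsl3 (SE 0.44), which activates fatty acids, with limma's adjusted p of 0.267, 0.283 and 0.583.

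Apoc1, the neighbour of Apoe in the apolipoprotein cluster of chromosome 7, was named after its values were seen. It stood at 11.1 and 11.6 CPM in Mdb and 7.96 and 4.79 CPM in Str in Exp 1, and at 16.1 and 10.2 CPM in Mdb and 7.64 and 0 CPM in Str in Exp 2, the 0 being in Str 3. All Mdb libraries exceeded all Str libraries (log2 fold change 1.17, SE 0.41, adjusted p = 0.219 by limma). Apoc2 had no count in any of the 8 libraries.

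Between the experiments, 11 of the 84 lipid genes passed the test (13.1%, beside 10.5% of all genes), 5 higher and 6 lower in Exp 2. Of all genes, 4.71% were called higher and 5.82% lower, so the lipid calls were near the general share. The 11 genes are named after their values were seen. Those higher were Insig1 (log2 fold change 2.38), Smpdl3a (1.58), Msmo1 (1.13), Ebp (0.68) and Npc2 (0.54). Msmo1 and Ebp are enzymes of cholesterol synthesis and Insig1 restrains it, while Npc2 moves cholesterol out of lysosomes. Among those lower were Plin4 (-2.69), Srebf1 (-1.08), Rxra (-0.86), Rxrb (-0.68) and Lipe (-0.56). Rxra and Rxrb encode partners of LXR. The median log2 fold change between the experiments was -0.16 for LXR partners and other LXR targets and -0.06 for cholesterol synthesis and its control. No pattern of either list is read from the genes named.

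The genes whose pattern over the 8 libraries was most like that of Apoe were, by the root mean square difference of centred log2 CPM, Ifi203 (0.17), Clec4a1 (0.23), Itsn1 (0.23), Rbms1 (0.25) and Rpl13a-ps1 (0.26), among 8802 genes whose median difference was 0.83. None of these is on a lipid list. In Str 3 of Exp 2, the shallowest library, they rest on 2, 9, 11, 12 and 5 counts, in that order. Clec4a1, a C-type lectin receptor of myeloid cells, stood at 53.1 and 54.2 CPM in Mdb and 17.6 and 18.5 CPM in Str in Exp 1. In Exp 2, it stood at 50.1 and 72.4 CPM in Mdb and 33.5 and 15.5 CPM in Str, so its lowest library was also that of Apoe. Ifi203 belongs to a family of near-identical genes and Rpl13a-ps1 is a pseudogene, so reads of either may be shared with their copies. Only genes with a mean of at least 10 CPM were ranked, so Apoc1, Stard4 and Nr1h3, among others, had no rank. The nearest lipid gene of those ranked was Nceh1 at rank 50, Lpl was at rank 1977, and Abcg1 and Abca1 were at ranks 7528 and 8385.

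Markers of other CD11b-carrying cells differed between the regions in the same direction as Apoe. The summed level of 10 border macrophage markers ranged from 1939 to 2331 CPM in Mdb and from 991 to 1343 CPM in Str in Exp 1, and from 2573 to 3107 and from 619 to 714 CPM in Exp 2. All 10 had a log2 fold change above 0, with a median of 1.57, and 6 were called higher in the joint fit. Over all genes tested, 54.4% were above 0 and 0.975% were called higher. Of the 8 monocyte markers, 8 were above 0 (3 called, median 2.19), with sums of 228 to 270 CPM in Mdb and 96.6 to 99.2 CPM in Str in Exp 1 and of 572 to 2705 and 124 to 196 CPM in Exp 2. Of the 10 neutrophil markers, 9 were above 0 (5 called, median 1.59), with sums of 1184 to 1515 CPM in Mdb and 889 to 921 CPM in Str in Exp 1 and of 4277 to 6708 and 967 to 1041 CPM in Exp 2. Without Str 3 of Exp 2 no gene of these 3 lists was called, while the medians were 1.51, 2.08 and 1.61, and no gene at all was called without Mdb 1 of Exp 1 or without Str 1 of Exp 2. Their part in the values of Apoe was not tested, and in bulk libraries more cells of a type and more RNA per cell cannot be told apart.

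Homeostatic microglia markers had the order of Abca1 and Abcg1. All 11 had a log2 fold change below 0 (median -0.62), and Siglech and Olfml3 were called lower, beside 0.0854% of all genes. Without Str 3 of Exp 2 none of the 11 was called and the median was -0.55. Their sums ranged from 12145 to 13777 CPM in Mdb and from 17156 to 18295 CPM in Str in Exp 1, and from 13465 to 15270 and from 18948 to 24025 CPM in Exp 2. Their part in the values of Abca1 and Abcg1 was not tested. Disease-associated microglia markers, listed without Apoe, Lpl and Fabp5, were above 0 for 8 of 13 tested genes (median 0.22). Clec7a, Spp1 and Igf1 were called higher in Mdb, beside 0.975% of all genes. Without Str 3 of Exp 2 none of them was called and the median was 0.13. The sums of this list were lower in Mdb, 15400 to 17088 against 17785 to 19080 CPM in Exp 1 and 16981 to 19548 against 20466 to 22567 CPM in Exp 2. They rest mostly on Ctsd, Tyrobp and Trem2, with means of 9828, 5079 and 1830 CPM, and do not stand for the list gene by gene. Clec7a, Spp1, Axl, Lgals3 and Igf1 were higher in Mdb without overlap in both experiments, and Trem2 and Cd9 were lower.

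Astrocytes, the main source of apolipoprotein E in the brain, left markers in every library. The sums of 12 astrocyte markers overlapped in both experiments, at 1255 to 1597 CPM in Mdb and 478 to 1451 CPM in Str in Exp 1 and at 911 to 946 and 708 to 2452 CPM in Exp 2. None of the 12 was called in the joint fit by limma (7 above 0, median 0.35, or 0.15 without Str 3 of Exp 2), and their part in the values of Apoe was not tested. The joint values combine opposite directions. All astrocyte markers but Slc1a3 were above 0 in Exp 1, and all but S100b were below 0 in Exp 2. Aqp4, for example, had log2 fold changes of 1.51 and -0.92, and Aldoc of 0.83 and -1.06. Oligodendrocyte markers summed to between 6264 and 12432 CPM per library, with no marker called and 8 of 10 above 0 (median 0.08), or 5 of 10 (median -0.003) without Str 3 of Exp 2. Mbp (0.61 and -0.61) and Mobp (0.66 and -0.39) were higher in Mdb in Exp 1 and lower in Exp 2, without overlap in either. Brain endothelial markers had a median of 0.02 and neuron markers of -0.04, on 3 neuron genes tested, and without Str 3 of Exp 2 these were -0.02 and 0.04.

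**Figure D4:**
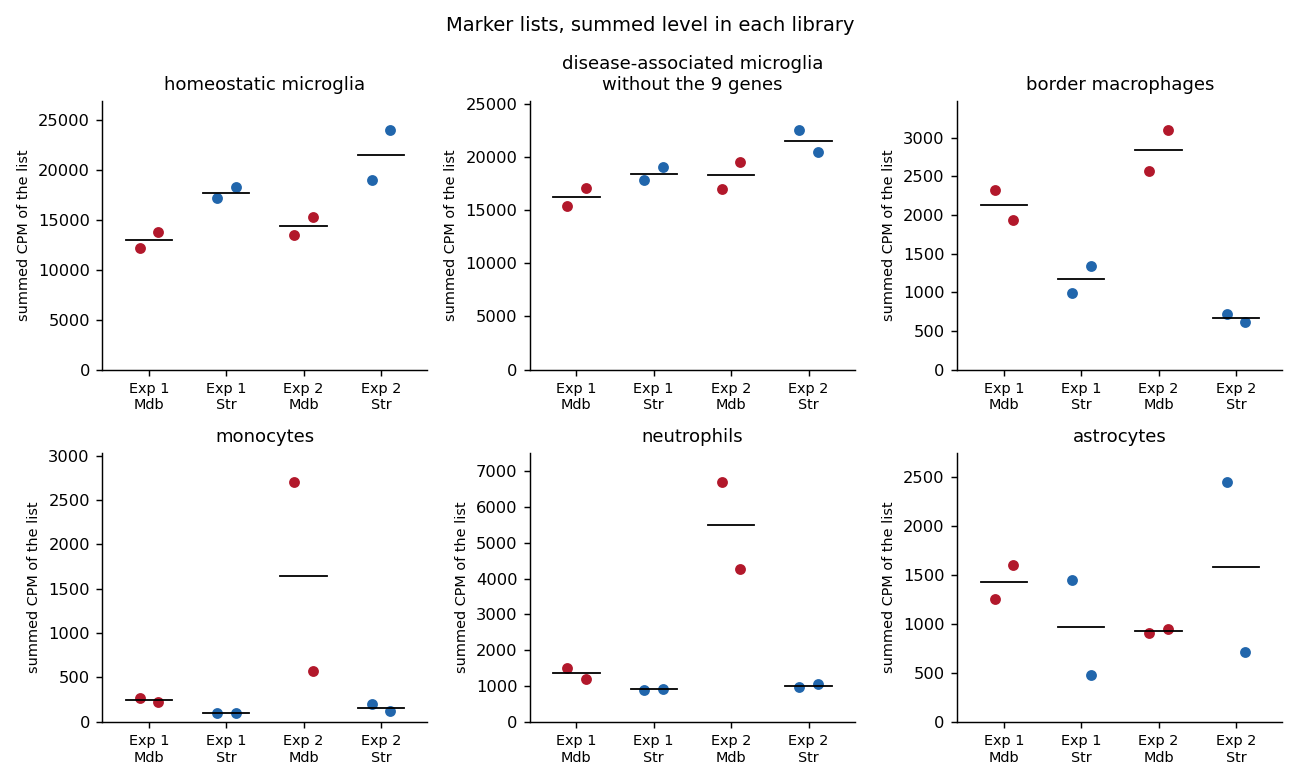
Summed CPM of 6 marker lists (y axes, from 0) in each of the 8 assigned libraries by experiment and region (x axis), red for Mdb and blue for Str, with the mean of 2 libraries as a line. Sums of border macrophage, monocyte and neutrophil markers lie higher and those of homeostatic microglia lower in Mdb in each experiment, and astrocyte sums overlap.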

How the data were processed

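MARS-seq libraries of CD11b-purified microglia were analysed as raw read counts per gene. The authors aligned reads to GRCm38 with STAR (version 2.5.3a in the submitters' processing notes), counted them over exons with featureCounts 1.6.0 on Gencode M17, without strand and without reads of several genes, and deposited counts of 53715 genes per library. Symbols were matched to 53620 of them. Strand was not used, so overlapping antisense transcripts cannot be separated.

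Following the study's methods, a gene was dropped from a fit if over 50% of its libraries had under 6 counts of it, and TMM factors (edgeR 4.0.16) with voom and limma 3.58.1 in R 4.3.3 were used. Each experiment was tested at an unadjusted p under 0.01, and 8 libraries jointly, with experiment as a covariate, at a Benjamini-Hochberg adjusted p under 0.05 over all genes. Tests were two-sided. CPM for the profiles most like Apoe had a prior count of 2. Promoter sequences are from RefSeq (GRCm38.p6).

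Named genes were all 9 genes, lipid list genes called in the joint fit, the largest change per lipid list at 10 CPM or more, and the 5 profiles nearest to Apoe. Other named lipid and marker genes were those behind counts of calls, named after their values were seen. Genes and lists were chosen with earlier results of these data known. Procedures were tested on simulated data. Values of some list genes are not reported here. The 2 libraries of Exp 2 whose labels disagree on the region were left out, so Exp 2 had 2 libraries per region. The study took both regions from its mice, 2 in Exp 1 and 3 in Exp 2, so libraries share animals, but the sources used here do not say which, and p-values treat libraries as independent. Other choices tried were DESeq2 1.42.0, the quasi-likelihood test of edgeR, other normalization, filters, weights and thinning, a replicate block, leaving out each library and both placements of the unassigned libraries. Depth (575709 to 8463782 counts) limits low genes most.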

Additional observations from a re-analysis of the deposited data

Results flagged for a closer look

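The 2 libraries of Exp 2 with labels that disagree on the region were outside all comparisons, and each of the 9 genes was above 3 counts in both. In the library titled Mdb 2, Apoe stood at 3775 CPM, Abca1 at 102.7 CPM, Abcg1 at 174.3 CPM and Lpl at 31.2 CPM. In the library titled Str 2, Apoe stood at 19640 CPM, Abca1 at 29.3 CPM, Abcg1 at 52.5 CPM and Lpl at 90.8 CPM. The library with less Apoe thus had more Abca1 and Abcg1, and its Apoe value lay below both assigned Str libraries of Exp 2 (4067 and 8546 CPM on the same scale), while the other lay above both assigned Mdb libraries (16250 and 18909 CPM). The values in the library titled Mdb 2 were 21.4 CPM for Fabp5, 3.06 CPM for Nr1h3, 99.7 CPM for Nr1h2, 799 CPM for Lrp1 and 59.3 CPM for Soat1. In the library titled Str 2 they were 67.1, 6.61, 86.5, 631 and 45.7 CPM, in the same order. Nr1h3 rests on 5 counts in the first of these libraries. No region was assigned from these values.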

How the results depend on the processing

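The joint log2 fold change of Apoe was above 0 in all 18 alternatives. It ranged from 1.13 to 1.55 when single libraries were left out and was 0.65 with both unassigned libraries in the region of their titles. Its adjusted p missed 0.05 in that placement and without Mdb 1 or Str 1 of Exp 1 or Str 1 of Exp 2. Abca1 and Abcg1 kept a value below 0 in all 18. For all genes, the 149 joint calls became 237 with edgeR, 554 with DESeq2, 277 without a filter, 57 with at least 10 counts in every library, 412 with quality weights, 308 with the replicate block, 0 with the unassigned libraries by title and 440 in the other region. Leaving out single libraries gave 0 to 238 joint calls (0 without Mdb 1 of Exp 1 and without Str 1 of Exp 2, 3 without Str 3 of Exp 2, 9 without Str 1 of Exp 1). The lipid list calls, 0 at first, were 2 with edgeR, 6 with DESeq2, 1 with library size only, 3 without a filter, 3 with weights, 2 after thinning, 1 with the replicate block (Mylip), 5 with the unassigned libraries in the other region and 0 to 2 without single libraries. The 395 calls of Exp 1 became 822 without a filter and 108 to 2445 without single libraries. The 468 calls of Exp 2 became 204 with the stricter filter, 988 with the replicate block, 307 after thinning, 132 with the unassigned libraries by title and 393 to 1240 without single libraries. The 1480 calls between experiments became 2332 with weights, 574 after thinning, 2375 with the unassigned libraries in the other region and 134 to 2021 without single libraries. With library size only, 27.5% of these were higher in Exp 2 in place of 44.7%, and the median of all genes was -0.13 in place of -0.02, with Soat1 no longer called. Libraries of the same replicate number had correlations of -0.034 in Exp 1 and 0.078 in Exp 2 after centring each group. With 2 libraries per group, both pairs of an experiment give the same value, so pairing by mouse cannot be judged from it. The replicate block used the numbers in the titles. For Mdb 3 and Str 1 of Exp 2 the file names carry other numbers. No block could be fitted between experiments, in which the numbers are nested. The list counts and medians without Str 3 of Exp 2 were added after seeing the data. The causes were not tested.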
